A study of Mus musculus with 4 samples.

Results

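The transcription factors that mark the mesenchyme and endocardium of the forming heart valve were followed in leaflets of the aortic and pulmonary (semilunar) valves, dissected from newborn mice. The members are 10 genes chosen by name, Sox9, Twist1, Snai2, Msx1, Msx2, Tbx20, Nfatc1, Gata4, Gata5 and Gata6, with all of their probe sets annotated to a single gene symbol. The 10 genes are among 18193 with such a probe set. Their probe sets were 25 of the 45037 non-control probe sets of Affymetrix Mouse430_2 arrays, and 21 of them, covering all 10 genes, were among the 22518 probe sets bright enough to be tested. Cxcr7-/- neonates, called mutants here, lack the atypical chemokine receptor Cxcr7 (now Ackr3), and were compared with Control neonates, their wildtype littermates. Each genotype had 2 pools on 1 array each, and each pool held the leaflets of 3 neonates. Mutants gave 4 to 6 leaflets over their 2 valves and controls gave 6, so the leaflet number was not the same in the genotypes. No label names a strain or a sex, and the pools are said to be biological replicates, with no replicate number tied to a litter.

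Heart valves arise when endocardial cells of the cushions lose their contacts, enter the matrix and become mesenchyme, a step driven by BMP, TGF-beta and Notch signals from the myocardium and endocardium. Snai2, Twist1, Msx1, Msx2, Tbx20 and Sox9 act in the cells that make this transition or in the mesenchyme that follows, Nfatc1 acts in the endocardium that stays behind and shapes the leaflets, and the GATA factors act in both. In the neonate the leaflets remodel into layers, and most of these factors are known from earlier, embryonic stages. Tbx20, Gata4 and Gata6 are also made by cardiomyocytes.

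Signals are MAS5 intensities on a linear scale, each array having been scaled to the same trimmed mean, and levels of different probe sets are not comparable with each other. Log2 fold changes were computed on log2(signal + 22), take mutants minus controls, and carry the SE (standard error) of limma at n = 2 and 2 pools. The deleted gene Ackr3 read 28.3 and 328 in the mutants, and 4936 and 5698 in the controls, so the arrays carried the genotypes on their labels. The median signal of an array lay between 84.5 and 110. The 3' to 5' signal ratio of the Gapdh control, a measure of how far labelling reached up the transcript, was 12.6 and 8.20 in the mutants, and 12.7 and 24.2 in the controls, highest in Control replicate 2. The same ratio for Actb was 15.5 and 11.7 in the mutants, and 20.2 and 19.1 in the controls, highest in Control replicate 1. The 2 ratios did not peak in the same pool, but both were higher in both Control pools than in either mutant pool. For Gapdh the gap was small, 12.7 in Control replicate 1 against 12.6 in Cxcr7-/- replicate 1. The part of labelling reach in the fold changes was not tested. In pooled tissue, fewer cells of a type and less RNA per cell cannot be told apart.

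No member passed the test of a difference between the genotypes. Of the 10 genes, each read by its brightest probe set, 0 passed an adjusted p of 0.05 in limma, where 0% of all genes did, and 0 reached an unadjusted p of 0.05, where 7.96% of the 11260 genes did. The smallest unadjusted p among them was 0.109, for Snai2, with an adjusted p of 0.587 in limma. The log2 fold changes ran from -0.50 to 0.70, 3 above 0 and 7 below, with a median of -0.14 beside 0.0048 for all genes. That median was not stable: leaving out a mutant pool gave -0.24 (replicate 1) or 0.048 (replicate 2), and leaving out a Control pool gave -0.25 (replicate 1) or 0.014 (replicate 2). It was -0.0046 after median centring, which raised all fold changes alike and moved the median of all tested probe sets from -0.019 to 0.12. Over the mean of each gene's probe sets it was -0.043, beside 0.0054 for all genes. As the sign of the member median turned with the pool left out, no direction is read from it. For 1 of the 10 genes (10%) both pools of one genotype lay beyond both pools of the other, against 40.2% of all genes. The same held for all 21 tested probe sets, of which 0 had an unadjusted p under 0.05 (10.1% of all probe sets) and 1 did not overlap (42.4%). With 2 pools a side these limits are wide, and they do not show that the factors were equal.

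The pools of 1 genotype differed from each other by more than the genotypes did. The median absolute difference between the Control pools was 0.68 on the log2 scale over the 10 genes, and that between the Cxcr7-/- pools was 0.30, beside a median absolute fold change of 0.19. Over all genes the same values were 0.37, 0.26 and 0.27. A genotype difference is taken between means of 2 pools and so varies less than a difference between single pools. In 9 of the 10 members the Control pools were further apart than the genotypes, as in 61.2% of all genes.

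**Figure D1:**
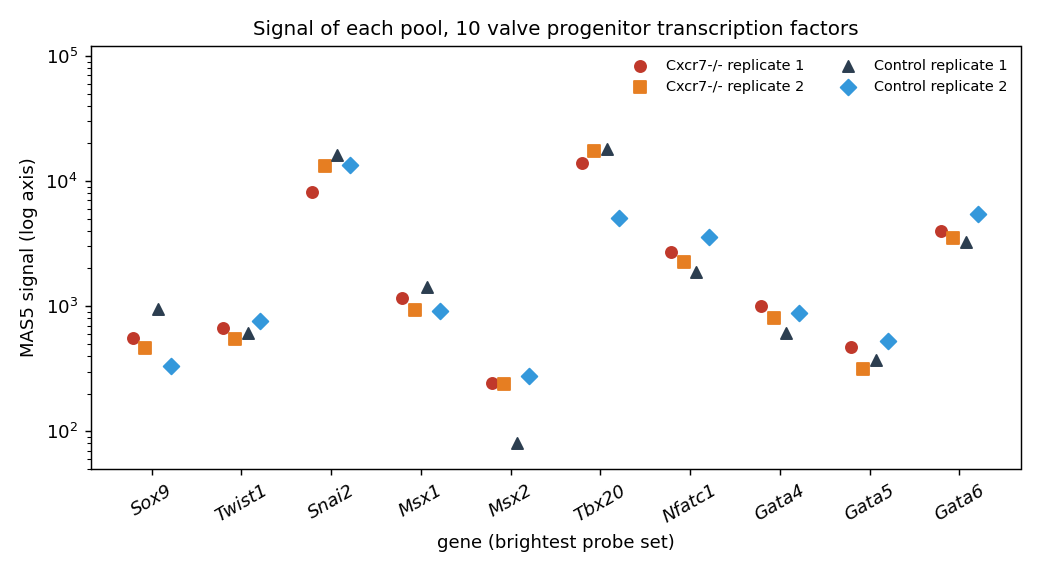
Signal of the brightest probe set of each gene in the 4 pools, on a log axis, with 1 point per array. The pools of both genotypes overlap in 9 of the 10 genes, and Tbx20 (5072 in Control replicate 2) and Msx2 (81.1 in Control replicate 1) each have 1 Control pool far below the others.

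Only 5 of the 10 members, Twist1, Msx1, Msx2, Tbx20 and Gata5, had an entry in the RefSeq promoter table (GRCm38.p6, 250 bases before to 50 after the start). The windows of Tbx20 and Msx2, the 2 members whose brightest probe sets differed most between the Control pools, and of Msx1, the paralogue of Msx2, are shown 5′ to 3′ with every E-box (CANNTG, either strand), the site class read by Twist1 and Snai2, in capitals.
Msx1 promoter, chr5:37824536-37824835, minus strand: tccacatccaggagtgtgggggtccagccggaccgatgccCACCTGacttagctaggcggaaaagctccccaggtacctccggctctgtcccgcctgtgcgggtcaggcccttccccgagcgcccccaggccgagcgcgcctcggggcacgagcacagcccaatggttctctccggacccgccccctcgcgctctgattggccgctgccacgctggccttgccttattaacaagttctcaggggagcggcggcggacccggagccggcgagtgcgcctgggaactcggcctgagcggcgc
Msx2 promoter, chr13:53472731-53473030, minus strand: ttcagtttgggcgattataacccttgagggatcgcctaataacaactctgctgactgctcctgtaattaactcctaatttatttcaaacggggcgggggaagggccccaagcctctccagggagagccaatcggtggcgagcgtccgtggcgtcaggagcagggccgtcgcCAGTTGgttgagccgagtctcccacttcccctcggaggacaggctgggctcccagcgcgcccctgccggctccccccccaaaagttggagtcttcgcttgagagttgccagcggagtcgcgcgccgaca
Tbx20 promoter, chr9:24774254-24774553, minus strand: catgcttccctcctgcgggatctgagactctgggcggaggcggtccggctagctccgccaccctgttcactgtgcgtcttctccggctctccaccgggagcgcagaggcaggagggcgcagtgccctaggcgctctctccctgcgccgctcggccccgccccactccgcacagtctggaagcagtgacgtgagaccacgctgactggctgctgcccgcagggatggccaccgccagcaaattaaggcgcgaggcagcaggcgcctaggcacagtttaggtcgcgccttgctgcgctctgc
The Msx1 window holds 1 E-box, which is also a CAGGTG match on the other strand, the Msx2 window holds 1 and the Tbx20 window holds none. An E-box was present in 3 of the 5 member promoters and in 72.3% of all 32851 promoters, and the narrower CAGGTG in 1 of 5 against 20.2%. The letters GATAA of a GATA site, on either strand, were in 0 of 5 against 25.4%. The member windows were rich in G and C, a median of 68.3%, beside a median of 52.7% for all promoters, and held 22 to 29 CpG dinucleotides beside a median of 7. These matches describe the letters of the windows and say nothing of whether a factor binds there.

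Among the factors of the transition itself, Snai2 encodes Slug, a zinc finger repressor of cell adhesion genes. Its brightest probe set, 1447643_x_at, read 8152 and 13206 in the mutants, and 16120 and 13299 in the controls. Both mutant pools lay below both Control pools, the 1 case among the tested member probe sets, but Cxcr7-/- replicate 2 and Control replicate 2 were nearly level. The log2 fold change was -0.50 ± 0.27 (SE), and the 95% interval on the fold scale was 0.456 to 1.10. The suffix of that probe set marks probes that can match other sequences, and the other probe set of Snai2, 1418673_at, read 569 and 967 against 909 and 570. There the genotypes overlapped fully, with a log2 fold change of 0.04 ± 0.37 (SE).

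The genes whose pattern over the 4 pools lay nearest to that of Snai2 1447643_x_at were Plcb4, a phospholipase C, Krtap10-4, a keratin-associated protein gene, and Zfp746, a zinc finger protein gene. The root mean square distance of their centred log2 values was 0.015, 0.033 and 0.041, the smallest among 11259 genes. Measured over 4 arrays only, these distances are a description.

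Twist1 encodes a basic helix-loop-helix factor that keeps cushion mesenchyme proliferating and migratory. Its only probe set read 671 and 542 in the mutants, and 611 and 758 in the controls. The 4 pools interleaved, and the log2 fold change was -0.17 ± 0.30 (SE), with an interval of 0.553 to 1.43 on the fold scale.

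The homeobox factors Msx1 and Msx2 are targets of BMP signalling in cushion endocardium and mesenchyme. Msx1 read 1167 and 929 in the mutants, and 1418 and 921 in the controls (log2 fold change -0.13 ± 0.31, SE). The lower pools of both genotypes, 929 and 921, were nearly level, and the dimmer probe set of Msx1, at 108 and 141 against 122 and 88.9, overlapped as well. Msx2 read 241 and 240 in the mutants, and 81.1 and 275 in the controls. Control replicate 1 alone was low, and the log2 fold change of 0.58 ± 0.51 (SE) became 1.35 ± 0.41 without Control replicate 2 and -0.18 ± 0.37 without Control replicate 1. The other Msx2 probe set, below the filter, was dim in every pool, at 7.51 and 26.2 against 54.0 and 29.7. There both mutant pools were the lower ones, opposite to the brighter probe set.

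Sox9, an HMG-box factor of proliferating cushion mesenchyme, switches on matrix genes of the cartilage type. Its brightest probe set read 552 and 463 in the mutants, and 946 and 333 in the controls, with the Control pools on either side of the mutants. The log2 fold change was -0.15 ± 0.47 (SE), and the interval on the fold scale was 0.426 to 1.90. The other tested probe set read 416 and 683 against 568 and 105 (log2 fold change 1.03 ± 0.66, SE), again overlapping, and the third, below the filter, read 40.3 and 47.6 against 112 and 28.4. Control replicate 2 was the lowest pool in all 3, and Control replicate 1 was the highest pool in 2 of them. The summed signal of 8 interstitial cell markers was lowest in Control replicate 2 as well, at 169900, while the mutants stood at 229500 and 242560 and the other control pool at 246400. The part of that marker level in the Sox9 values was not tested. In this and later sums of raw signal the brightest probe sets weigh most.

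Tbx20, a T-box factor of endocardium, cushion mesenchyme and myocardium, gave the widest spread. Probe set 1453351_at read 13955 and 17359 in the mutants, and 18078 and 5072 in the controls (log2 fold change 0.70 ± 0.51, SE). Probe set 1425158_at read 1536 and 3022 against 2404 and 818, or 0.61 ± 0.52. Control replicate 2 was the lowest pool in both, at 36.3% and 53.3% of the lowest of the other 3. Probe set 1422219_a_at, whose suffix marks probes shared by alternative transcripts of the gene, went the other way: it read 393 and 543 in the mutants, and 341 and 2465 in the controls, or -0.97 ± 0.76. There Control replicate 2 was the highest pool, 7.24 times the other Control pool. Where the probes of each set lie on the transcript is not given in the sources used here, so whether the split follows transcript variants or position was not tested.

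With Control replicate 1 left out, the brightest Tbx20 probe set stood at 1.61 ± 0.23 (SE) with an adjusted p of 0.0094 in limma, and it was the 1 member to pass there, where 2.51% of all genes did. With Control replicate 2 left out, it stood at -0.22 ± 0.21 (SE) with an adjusted p of 0.749. The sign of the Tbx20 difference thus turned with the Control pool that was kept. Without Cxcr7-/- replicate 2, 0 members passed (0.0533% of all genes). At an unadjusted p of 0.05, 2 members passed without Control replicate 1 (Tbx20 and Gata6, beside 20.1% of all genes), 3 without Control replicate 2 (Sox9, Snai2 and Msx2, beside 8.76%), 1 without Cxcr7-/- replicate 2 (Snai2, beside 4.57%) and 0 without Cxcr7-/- replicate 1 (2.62%). Summed over 9 cardiomyocyte markers, the signal was 56463 and 84825 in the mutants, and 100960 and 124300 in the controls, with 8 of the 9 markers lower in both mutant pools, as were 19.1% of all genes. Control replicate 2 was highest in that sum, lowest in 2 probe sets of Tbx20 and highest in the other. The part of heart muscle RNA in these values was not tested.

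**Figure D2:**
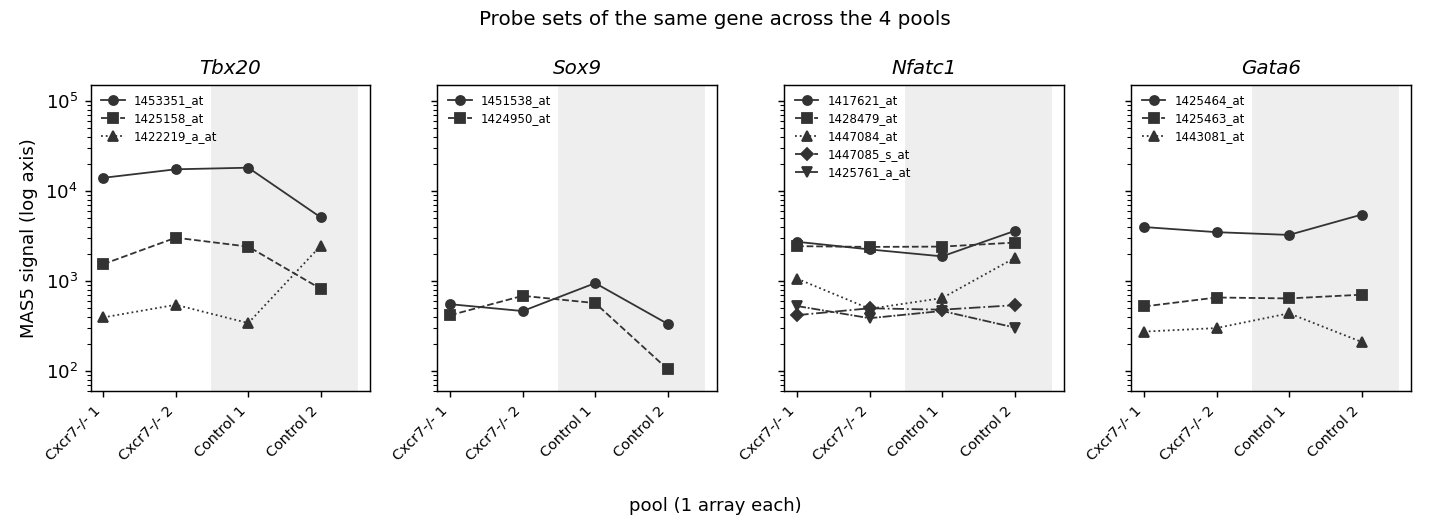
Signal of each tested probe set of Tbx20, Sox9, Nfatc1 and Gata6 in the 4 pools, on a log axis, with the Control pools shaded. In Tbx20 the lines cross between the Control pools: 2 probe sets drop in Control replicate 2 and 1 climbs to 2465, and in Nfatc1 the probe set that read 491 to 1799 moved most.

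Nfatc1, the calcineurin-activated factor of valve endocardium, had 5 tested probe sets. The brightest, 1417621_at, read 2720 and 2238 in the mutants, and 1874 and 3591 in the controls (log2 fold change -0.07 ± 0.34, SE), with both mutant pools between the Control pools. Probe set 1428479_at read 2433 and 2386 against 2406 and 2665, or -0.07 ± 0.24. Its 4 pools were nearly level, and the interval was 0.652 to 1.39 on the fold scale. On the log2 scale it was the narrowest among the members. Of the other 3 sets, 2 had negative fold changes and 1 a positive one, from -0.57 to 0.25. The summed signal of 8 endothelial markers was 8316 and 7345 in the mutants, and 12676 and 12411 in the controls, with 5 of the 8 lower in both mutant pools (19.1% of all genes), among them Cldn5. The pools of the other markers, Emcn, Tek and Pecam1, overlapped, as did those of Nfatc1, an endocardial factor.

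Gata4, a zinc finger factor of endocardium, cushion and heart muscle, read 1001 and 805 in the mutants, and 614 and 879 in the controls (log2 fold change 0.28 ± 0.31, SE). The upper Control pool lay between the mutant pools. The dim probe set of Gata4, below the filter, read 49.7 and 85.0 against 13.5 and 33.1, higher in both mutant pools at signals near the pseudocount of 22. Gata5, whose loss is linked to malformed aortic valves, read 470 and 312 against 371 and 531, or -0.20 ± 0.35, with interleaved pools, and its other probe set was below the filter at 42.5 and 13.6 against 6.09 and 36.3. Gata6 read 3967 and 3478 in the mutants, and 3243 and 5445 in the controls, or -0.18 ± 0.29, with Control replicate 2 high and the rest close together. Its 3 tested probe sets all had negative fold changes, from -0.19 to -0.083, but did not share a pattern over the pools. Control replicate 2 was also the highest pool in 1425463_at, at 521 and 655 against 639 and 704. In 1443081_at it was the lowest, at 274 and 300 against 437 and 210.

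**Figure D3:**
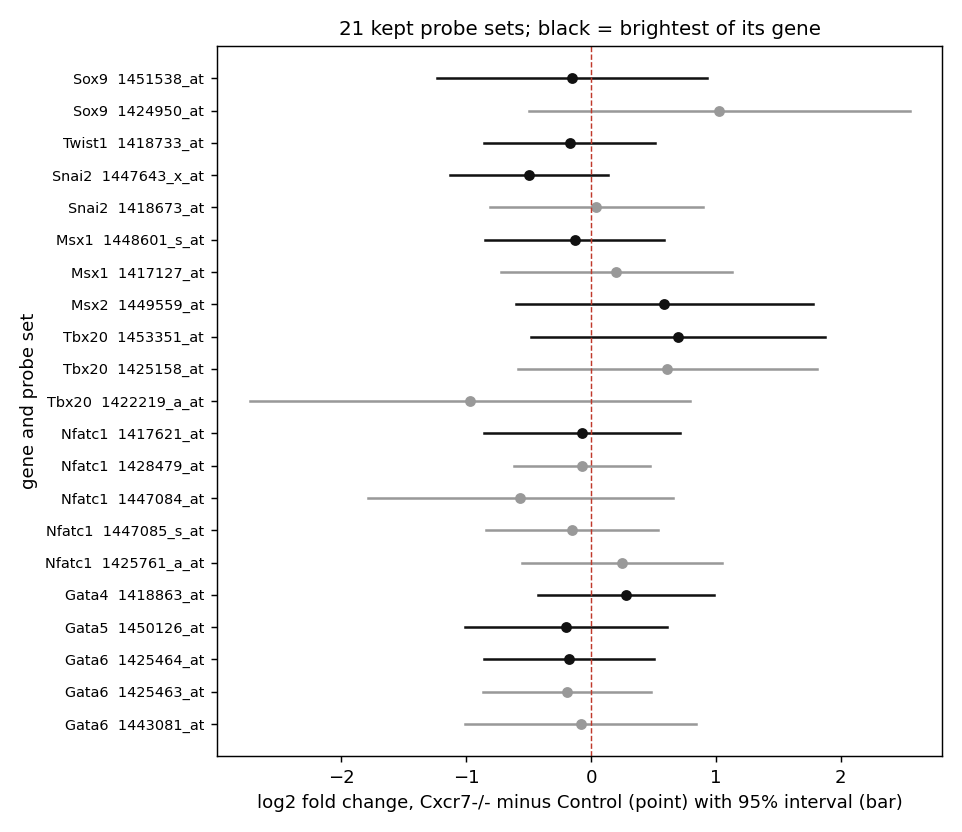
Log2 fold change, Cxcr7-/- minus Control, with its 95% interval for the 21 tested probe sets, the brightest of each gene in black. All 21 intervals include 0, and the Tbx20 probe sets span -0.97 to 0.70.

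Of the 6 genes with more than 1 tested probe set, Sox9, Snai2, Msx1, Tbx20 and Nfatc1 had sets with fold changes of both signs, and Gata6 had sets of 1 sign. The distance between the highest and lowest fold change of a gene was 1.67 for Tbx20, 1.18 for Sox9, 0.81 for Nfatc1, 0.54 for Snai2 and 0.33 for Msx1. Control replicate 2 was the array farthest from the mean of the other 3 in 11 of the 21 tested member probe sets (52.4%) and in 37.5% of all tested probe sets, but 7 of the 11 belong to Tbx20 and Nfatc1. Counted by gene, it was farthest in 4 of the 10 members (40%), beside 39.1% of all genes, and Control replicate 1 was farthest in 4 as well. It was the highest pool in 10 of the 21 probe sets and the lowest in 8, beside 29.9% and 31.7% of all tested probe sets.

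**Figure D4:**
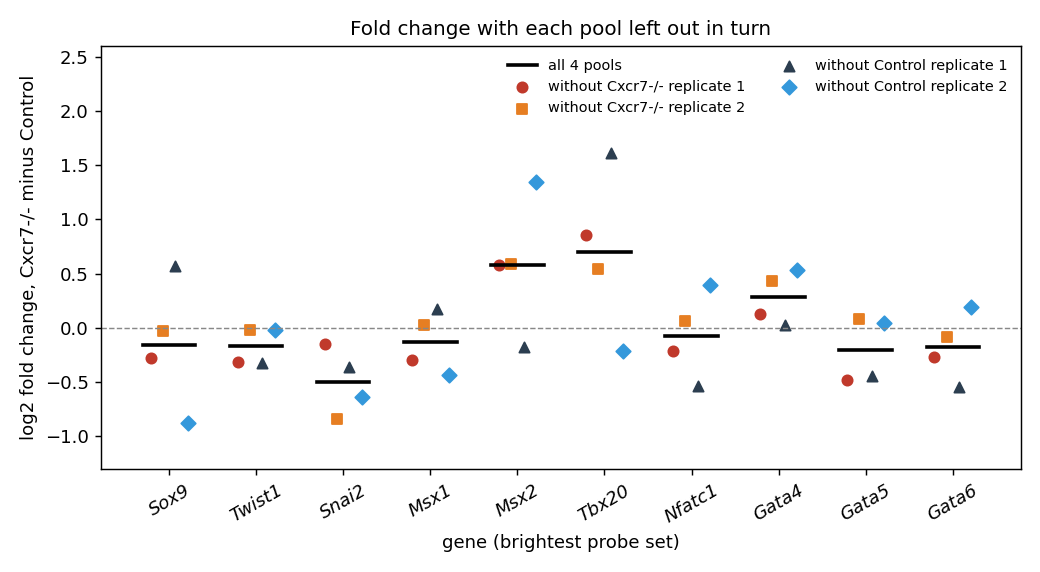
Log2 fold change of the brightest probe set of each gene with all 4 pools (bar) and with each pool left out in turn (points). Snai2, Twist1 and Gata4 kept their sign in all 4, while Tbx20 ran from -0.22 to 1.61 and Msx2 from -0.18 to 1.35, according to which Control pool was left out.

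The factors that work beside the members were read from a list of 42 other transcription factors of valve and cushion. Of 36 measured, 0 passed the adjusted threshold in limma, 2 were lower and 0 were higher by an unadjusted p of 0.05, beside 4.03% lower and 3.93% higher among all genes, and the median log2 fold change was -0.07. Foxc2, a forkhead factor of valve endothelium, read 464 and 629 in the mutants, and 1178 and 1363 in the controls (log2 fold change -1.20 ± 0.29, SE; limma adjusted p = 0.406). Tfap2a, a factor of neural crest, read 155 and 187 against 276 and 438. In both genes the mutant pools were the lower ones without overlap. Of the 36, 8 were lower and 4 higher without overlap, beside 19.1% and 21.1% of all genes. Prrx1, a homeobox factor of mesenchyme, was the higher in both mutant pools, at 5739 and 6134 against 4796 and 3602. Nkx2-5, a partner of Gata4 and Tbx20 in heart muscle, read 59.6 and 190 against 156 and 368 with overlap.

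Of the 33 partners and cofactors, all measured, 0 passed the adjusted threshold in limma. By an unadjusted p of 0.05, 7 were lower and 0 were higher, beside 4.03% and 3.93% of all genes. Without overlap, 15 were lower and 6 higher, beside 19.1% and 21.1% of all genes. The median log2 fold change of the 33 was -0.21. Zfpm1, which encodes the GATA cofactor FOG1, read 449 and 324 in the mutants, and 726 and 915 in the controls (log2 fold change -1.05 ± 0.31, SE; limma adjusted p = 0.413). Rcan2, a regulator of calcineurin, which activates Nfatc1, read 1068 and 1564 against 2165 and 3957 (-1.17 ± 0.35, SE; limma adjusted p = 0.415). Both mutant pools were the lower ones in each. Ajuba, a LIM protein that binds Snail-family repressors, was at -0.89 ± 0.30 and the corepressor Tle3 at -0.72 ± 0.28. The cardiomyocyte sum, like these genes, was lower in the mutants, and its part in them was not tested.

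Of 25 listed target genes of the members, 20 were measured, with 3 higher and 4 lower by an unadjusted p of 0.05, beside 3.93% and 4.03% of all genes, and 0 past the adjusted threshold in limma. Without overlap, 5 were higher and 8 lower, beside 21.1% and 19.1% of all genes. The targets not measured, Col2a1, Matn1, Col11a2, Tbx2 and Cldn1, had no probe set above the filter. Of the Sox9 targets, Col9a1, a collagen IX chain, read 13451 and 9729 in the mutants, and 5731 and 4780 in the controls, and the hyaluronan link protein gene Hapln1 read 7343 and 8564 against 4443 and 3665. Acan, the aggrecan gene, went the other way, at 145 and 150 against 289 and 391. Cdh11, the mesenchymal cadherin linked to Twist1, read 11095 and 11742 against 6823 and 4637. Myh6, a cardiomyocyte gene driven by Gata4, read 5374 and 10006 against 16963 and 26791. These genes were named for the smallest p in the list or among the cartilage markers, and none passed the adjusted threshold. Among the other listed targets, the pools of Postn, Nppa, Nppb, Comp, Ctsk, Cdh1 and Vcan overlapped. Of 18 BMP, TGF-beta, Notch and Wnt signals, 1 was lower and 0 were higher by that p, close to the 4.03% and 3.93% of all genes. The lower gene, Wnt4, read 2337 and 1970 against 3028 and 4980. Wnt9b went the other way, at 3118 and 3343 against 2562 and 1816. Bmp4, a ligand upstream of Msx1 and Msx2, read 661 and 850 against 1289 and 874. Without overlap, 3 of the 18 signals were higher and 3 lower, beside 21.1% and 19.1% of all genes.

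Cell type markers other than those named above were counted on the same scale. All 6 macrophage markers were on the higher side in mutants, 3 of them by an unadjusted p of 0.05 (3.93% of all genes), and had a summed signal of 15042 and 13568 in the mutants, and 10447 and 8784 in the controls. All 4 measured neural and Schwann markers of 5 were higher, 2 by that p, at a sum of 1089 and 964 against 510 and 416. Among them Sox10 was nearly level, at 117 and 114 against 112 and 98.3. All 5 measured smooth muscle markers of 6 were lower, 3 by that p (4.03% of all genes), at 14452 and 18341 against 22224 and 29597. Of 5 epicardial markers 4 were lower, 2 by that p (4.03% of all genes). Of 4 cartilage markers 1 was measured, Acan. No marker was at 0 in any pool. The part of these marker levels in the members' values was not tested.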

How the data were processed

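RNA from pooled leaflets (50 ng of total RNA, 2 amplification cycles, per the labels' protocols) was measured on 4 arrays. The deposited intensity values are on a linear scale, and the authors made them with Affymetrix Expression Console and MAS5, per the submitters' processing notes; no version or detection call was given in the sources used here. The 64 control probe sets were set aside. Genes came from the platform's annotation table, updated by gene identifier: 34945 probe sets had 1 symbol, 932 several and 9160 none. Signals were taken as log2(signal + 22), and probe sets with a mean above the median were kept. The genotypes were tested by limma 3.58.1, run in R 4.3.3 (intensity trend, two-sided, 2 residual and 5.85 prior degrees of freedom), with Benjamini-Hochberg adjustment over the 22518 kept probe sets and a threshold of 0.05. A gene was represented by its brightest kept probe set. An exact permutation test of 2 against 2 pools cannot go below p = 0.333, so none was used. The number of arrays limits the precision. The p-values rest on the spread between these pools and on a variance trend shared over the kept probe sets. The script was tested on simulated data with independent errors and added changes larger than those of the members. That run does not cover smaller changes or an outlying pool.

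Named genes were all members, Ackr3, and up to 4 genes of each further list with the smallest unadjusted p. The 3 genes nearest in pattern to the member with the smallest p were named as well. Bmp4 and Acan fall under the list rule through a second list. Outside the rule, targets and endothelial markers with overlapping pools were named for that overlap. Sox10 was named for its nearly level signal, and the targets not measured were named as such. The members and lists were chosen with earlier results of these data known. Alternatives were the pseudocount, the filter, the scaling, the replicate block, the choice of probe set and each pool left out.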

Additional observations from a re-analysis of the deposited data

How the results depend on the processing

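Relative to the values reported, no alternative in pseudocount, filter, scaling or block gave a member an adjusted p under 0.05 in limma, and the only member to pass was Tbx20 without Control replicate 1. With 1 pool left out, the calls over all probe sets ran from 0 to 673 (8 without Cxcr7-/- replicate 2 and 673 without Control replicate 1), the members past the adjusted threshold from 0 to 1, the members at an unadjusted p under 0.05 from 0 to 3, and the members without overlap from 2 to 9, a count that rises with fewer pools by construction. The share of all genes without overlap was not computed with a pool left out. The count of members without overlap therefore cannot be set beside all genes, and nothing is read from it. In these fits the lone pool of a genotype was taken to vary like the others. The log2 fold change then ran from -0.88 to 0.57 for Sox9, -0.44 to 0.17 for Msx1, -0.18 to 1.35 for Msx2, -0.22 to 1.61 for Tbx20, -0.54 to 0.39 for Nfatc1, -0.48 to 0.078 for Gata5 and -0.55 to 0.19 for Gata6. Median centring moved the median of all probe sets from -0.019 to 0.12 and turned Msx1 to 0.0061 and Nfatc1 to 0.066, both below that shift. The mean over the kept probe sets of a gene turned Sox9 to 0.44 and Msx1 to 0.035. Twist1, Snai2 and Gata4 kept their sign in all alternatives run. The replicate numbers are not tied to a litter or day by any label, and with the replicate block there were 0 calls over all probe sets. The deviations of same-numbered pools correlated at -0.26, and the crossed replicate block, chosen after seeing the data, gave 5 calls.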
